A study of Mus musculus with 10 samples.

Results

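Cyclins and CDK inhibitors were followed in differentiating mouse embryonic stem cells with and without a CTCF binding element near the HoxA cluster. The set was given by gene name and held 10 genes: the D cyclins Ccnd1, Ccnd2 and Ccnd3, the E cyclins Ccne1 and Ccne2, the A and B cyclins Ccna2 and Ccnb1, and the CDK inhibitors Cdkn1a, Cdkn1b and Cdkn2a. All 10 were among the 16005 genes with enough counts to be tested, of 52636 gene identifiers in the tables. The rule used gene names and no measured value, but the set and the lists below were chosen with earlier results of these data known. The question was how the cell-cycle machinery differed as the cells left pluripotency.

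RNA-seq had been done on 2 WT and 2 CBE-KO libraries, which the study's design text calls biological replicates. WT were E14 mouse embryonic stem cells, an established line kept on gelatin, and CBE-KO were the same line without the CTCF binding element (CBE), a DNA site bound by the architectural protein CTCF. Both groups had been grown in serum with LIF, the MEK inhibitor PD0325901 and the GSK inhibitor CHIR99021, the pair known as 2i. Both were then moved to medium without LIF and 2i and given retinoic acid (RA) at 2 µM for 24 h, so no untreated cells enter the comparison and it does not show a change over time. How many CBE-KO clones were sequenced is not given in the sources used here.

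Cyclins are the regulatory subunits that switch on cyclin-dependent kinases (CDKs). D cyclins act with CDK4 and CDK6 in G1, E cyclins with CDK2 at entry into S phase, A cyclins with CDK2 and CDK1 in S and G2, and B cyclins with CDK1 in mitosis. Inhibitors of the Cip/Kip class (Cdkn1a, Cdkn1b) bind cyclin-CDK complexes, and those of the INK4 class (the Ink4a product of Cdkn2a) bind CDK4 and CDK6. Mouse embryonic stem cells are known for a short G1 phase with high cyclin E activity and low inhibitor levels, and G1 lengthens as they differentiate.

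The libraries held 14108038 to 15632960 counts each. Values below are CPM, read counts scaled to a common library size, after TMM scaling, which evens out differences in composition between libraries, and a gene was called changed where edgeR's quasi-likelihood test gave it a Benjamini-Hochberg adjusted p below 0.05, with adjustment over all tested genes. The 2 groups stood apart in genes with no tie to the labels: Ddx3y, Eif2s3y and Uty, which lie on the Y chromosome, had 0 to 6 counts in the WT libraries and 267 to 920 in the CBE-KO libraries. The deletion and any other difference between the 2 cell populations cannot be told apart in what follows. Stem cell markers were abundant in all 4 libraries, with Pou5f1 at 1082 and 970 CPM in WT and 816 and 814 CPM in CBE-KO. Of the 9 stem cell markers 8 changed, 2 higher and 6 lower. This and the marker counts below stand beside 43.1% changed over all tested genes, 21.6% higher and 21.5% lower. The summed level of the stem cell markers was 8145 to 8438 CPM in WT and 7679 to 7824 CPM in CBE-KO. Dppa5a, the largest part of that sum, rose from 3547 and 3433 CPM in WT to 4197 and 4297 CPM in CBE-KO. Nanog, the other that rose, had a log2 fold change of 0.15. The largest of the 6 falls were those of Utf1, Tdgf1 and Sall4 (log2 fold changes -1.67, -1.20 and -0.94), so the sum hides them. Fibroblast markers summed to 16.7 and 18.7 CPM in WT and to 32.5 and 32.3 CPM in CBE-KO, nearly all from Pdgfrb and Col1a1, the 2 of the 9 that were tested, and both rose (log2 fold changes 0.83 and 0.88, edgeR adjusted p = 8.55e-06 and 0.00290). Of the untested fibroblast markers, Col1a2 was counted 0 and 1 times in the WT and 12 and 8 times in the CBE-KO libraries, Col3a1 had 0 in both WT libraries and 8 and 1 in CBE-KO, Col6a3 had 0 to 2, and Dcn, Lum, Postn and Fap had 0 throughout. Blood cell markers (51.9 and 55.7 against 33.3 and 30.5 CPM, with Hbb-bs and Hba-a1 at 0), extraembryonic endoderm markers (68.8 to 71.1 against 77.7 to 82.2 CPM) and trophoblast markers (88.2 to 98.7 against 97.2 to 99.3 CPM) were also low in sum. Within these sums 2 of the 4 tested endoderm markers rose, Gata4 (log2 fold change 0.72, edgeR adjusted p = 0.00113) and Sox7 (0.81, adjusted p = 0.00199). Of the 5 tested trophoblast markers, Krt8 and Krt18 rose (0.20 and 0.41, edgeR adjusted p = 0.0230 and 0.0116) and Tfap2c fell (-0.74, adjusted p = 5.40e-05). Cd68, the 1 tested blood marker, fell by 0.75 on the log2 scale (edgeR adjusted p = 6.25e-07). The part of these cell types in the results was not tested. In bulk RNA, fewer cells of a type and less RNA per cell cannot be told apart, and neither can a shift in the share of cells in a cell-cycle phase.

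Among the inhibitor genes, Cdkn2a and Cdkn1a have promoter features that bear on how their values are read, so their sequences are shown first, from RefSeq on GRCm38.p6, the build that mm10 names. The table held 9 promoter windows for 6 of the 10 genes and none for Ccnd1, Ccnd2, Ccne2 and Ccna2. Each window is the 250 bases before a transcription start, read 5′ to 3′ on the gene's strand. Cdkn2a (chr4:89274473-89294619) has 2 starts 12.4 kb apart. The upstream start gives the Arf transcript and the downstream start the Ink4a transcript, 2 unrelated proteins that share later exons. The count tables hold 1 value per gene, so the Ink4a and Arf transcripts were counted together and cannot be told apart. In the lines below, capitals mark an E2F motif (TTTCCCGC) and GC boxes (GGGCGG) before the upstream start, a retinoic acid receptor half-site (AGGTCA) before the downstream start, and the paired p53 motif (CATG, any 6 bases, CATG) of Cdkn1a.
Cdkn2a upstream start, chr4:89294620-89294869, minus strand: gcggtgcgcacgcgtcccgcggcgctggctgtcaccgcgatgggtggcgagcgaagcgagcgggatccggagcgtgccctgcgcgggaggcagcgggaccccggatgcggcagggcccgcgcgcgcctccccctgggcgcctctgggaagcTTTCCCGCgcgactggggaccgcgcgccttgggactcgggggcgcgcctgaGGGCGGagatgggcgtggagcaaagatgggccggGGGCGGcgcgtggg
Cdkn2a downstream start, chr4:89282193-89282442, minus strand: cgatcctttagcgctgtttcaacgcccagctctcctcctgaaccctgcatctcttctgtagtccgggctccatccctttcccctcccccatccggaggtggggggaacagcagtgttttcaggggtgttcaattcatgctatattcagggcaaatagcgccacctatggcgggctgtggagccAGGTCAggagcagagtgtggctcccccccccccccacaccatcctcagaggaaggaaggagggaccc
Cdkn1a upstream start, part of the window, chr17:29090918-29090957, plus strand: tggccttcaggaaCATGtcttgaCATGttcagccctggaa

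On either strand, TTTCCCGC occurred in 0.895% of the 32851 windows of all genes and, among the 9 windows here, only before the upstream Cdkn2a start. The paired p53 motif occurred in 0.49% of all windows and, of the 9, only in that of the upstream Cdkn1a start. The half-site AGGTCA was found in 14% of all windows and in 3 of the 9 (Ccnb1, Ccnd3 and Cdkn2a). GGGCGG was found in 32.7% of all windows and in 7 of the 9, and CCAAT, bound by NF-Y, in 33.8% of all windows and in 3 of the 9 (Ccnb1, Ccnd3 and Cdkn1b). CACGTG, the E-box bound by Myc (6.02% of all windows), TTTGGCGC (0.417%) and TTTGAA (16%) were in none of the 9. The motifs do not overlap in the stretches shown. A match describes the letters only, and no binding was measured. Only the letters given were sought, in the 250 bases before a start, so other forms of a site and sites elsewhere were missed. A window without a match therefore does not show that the gene lacks such a site.

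Of the 10 genes, 8 changed between CBE-KO and WT, 4 higher and 4 lower. Among all tested genes 43.1% changed, 21.6% higher and 21.5% lower. Ccnd2, Cdkn1a, Cdkn1b and Cdkn2a were higher in CBE-KO, and Ccnd1, Ccnd3, Ccne1 and Ccna2 were lower. Ccne2 and Ccnb1 did not pass the test. For every one of the 10 genes the 2 groups did not overlap, which held for 70.4% of all tested genes. The median log2 fold change, CBE-KO minus WT, was -0.17 over the 10 genes and 0.01 over all tested genes. CPM is not corrected for transcript length, so levels are compared between libraries within a gene and no order of levels across genes is given.

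**Figure D1:**
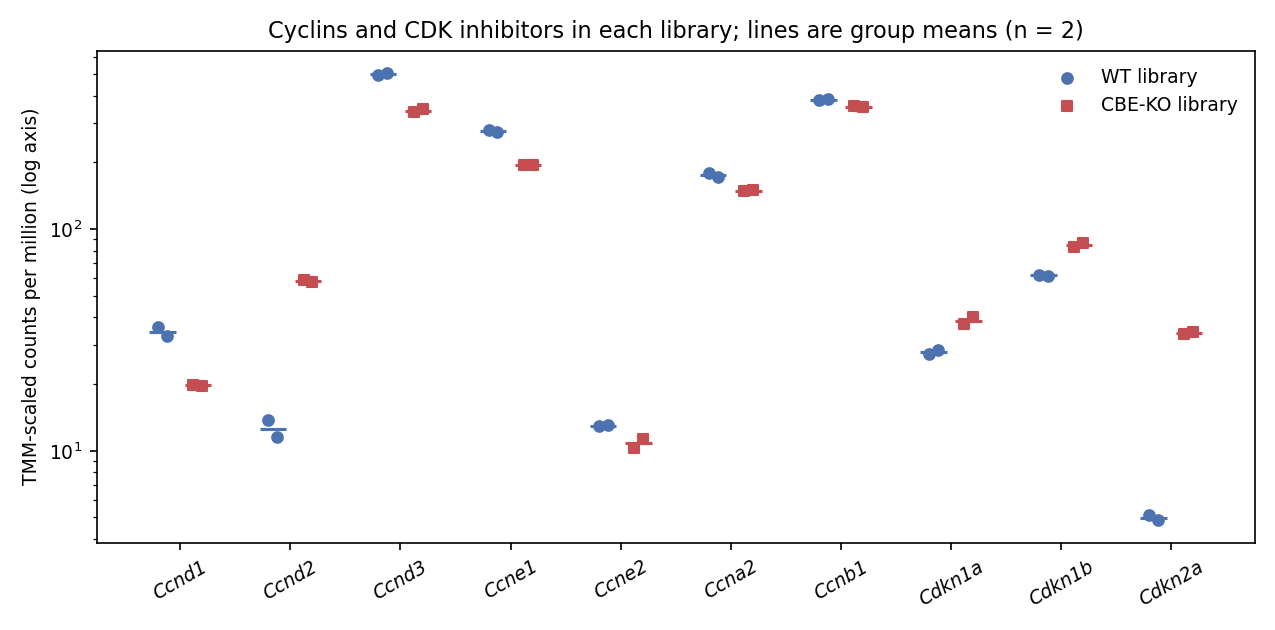
TMM-scaled CPM (vertical, log axis) of the 10 genes in each of the 2 WT (circles) and 2 CBE-KO (squares) libraries, with lines at the group means. Ccnd2 and Cdkn2a lie far higher in both CBE-KO libraries (58.0 to 58.9 and 33.8 to 34.5 CPM), while the groups lie close together for Ccne2 and Ccnb1.

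The D cyclins moved in opposite directions. Ccnd2 (ENSMUSG00000000184, chr6:127125162-127152188) had 13.7 and 11.5 CPM in the WT libraries and 58.9 and 58.0 CPM in the CBE-KO libraries. The group means were 12.6 ± 1.55 and 58.4 ± 0.582 CPM (SD, n = 2). Both CBE-KO libraries stood well above both WT libraries, 4.62-fold higher in the fit, with a log2 fold change of 2.21 ± 0.09 (SE) and an edgeR adjusted p of 6.50e-12. Ccnd1 (ENSMUSG00000070348, chr7:144929931-144939831), the D cyclin best known as a target of growth-factor signalling, had 36.0 and 32.8 CPM in WT and 19.9 and 19.7 CPM in CBE-KO. Its level was lower in both CBE-KO libraries, with a log2 fold change of -0.80 ± 0.09 (SE) and an edgeR adjusted p of 1.86e-06. Ccnd3 (ENSMUSG00000034165, chr17:47505051-47599689) had 494 and 506 CPM in WT against 338 and 348 CPM in CBE-KO. The log2 fold change of Ccnd3 came to -0.54 ± 0.05 (SE), with an edgeR adjusted p of 5.45e-08, so the 2 D cyclins that fell did so by less than Ccnd2 rose.

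Counted together, the D cyclins made up 544 and 551 CPM in WT and 417 and 426 CPM in CBE-KO. Ccnd2 supplied 2.53% (95% interval 2.19% to 2.90%) and 2.10% (1.78% to 2.44%) of the D cyclin counts in the WT libraries. In the CBE-KO libraries it supplied 14.1% (13.3% to 15.0%) and 13.6% (12.8% to 14.5%), by exact Clopper-Pearson intervals that cover counting error only. Ccnd1 went from 6.62% and 5.96% in WT to 4.78% and 4.63% in CBE-KO. Most D cyclin counts were from Ccnd3 in every library, at 90.8% and 91.9% in WT and 81.1% and 81.7% in CBE-KO. These shares are unaffected by how libraries are scaled, but they are shares of counts and not of molecules, since the 3 transcripts differ in length.

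**Figure D2:**
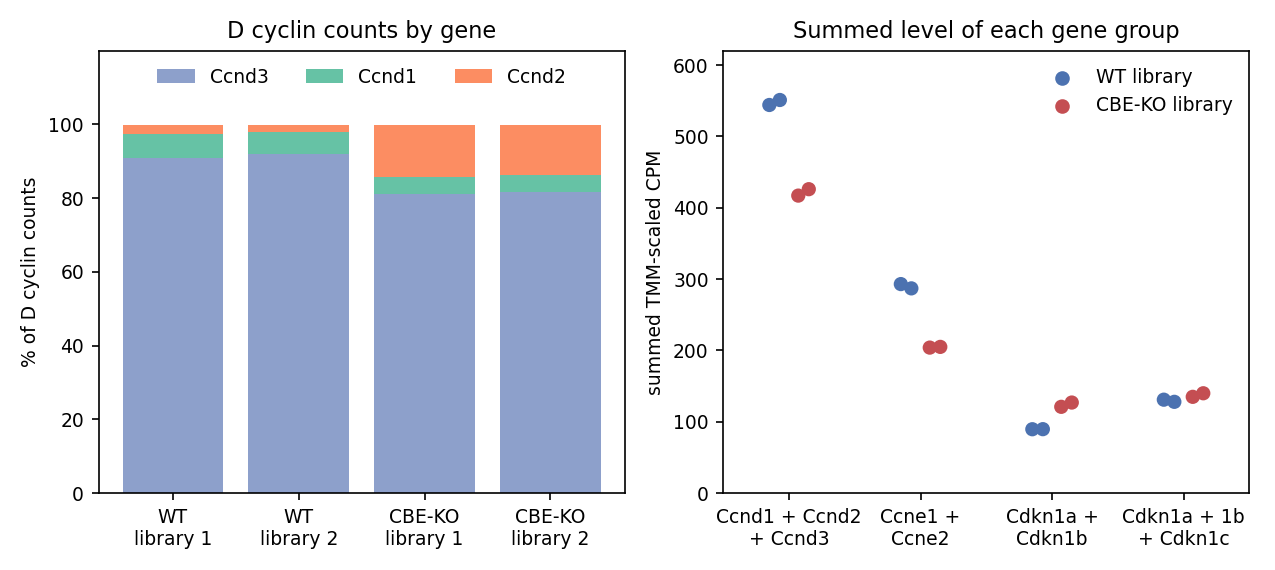
Left, the percent of D cyclin counts from Ccnd3, Ccnd1 and Ccnd2 in each library; right, the summed TMM-scaled CPM of the D cyclins, of the E cyclins, of Cdkn1a with Cdkn1b, and of these with Cdkn1c, 1 point per library. Ccnd2 takes 2.10% to 2.53% of D cyclin counts in WT and 13.6% to 14.1% in CBE-KO, while the summed D and E cyclin levels are lower and the sum of Cdkn1a and Cdkn1b higher in both CBE-KO libraries; with Cdkn1c the inhibitor sums lie close together, at 128 to 131 CPM in WT and 135 to 140 CPM in CBE-KO.

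Ccne1 (ENSMUSG00000002068, chr7:38097984-38107490), the more abundantly counted E cyclin, had 280 and 274 CPM in WT and 194 CPM in each CBE-KO library. Ccne1 had a log2 fold change of -0.52 ± 0.05 (SE), a fold of 0.699, with an edgeR adjusted p of 1.27e-07. Ccne2 (ENSMUSG00000028212, chr4:11190433-11204779) had 12.9 and 13.1 CPM in WT and 10.3 and 11.3 CPM in CBE-KO. It did not pass the test, with a log2 fold change of -0.27 (95% interval -0.56 to 0.02) and an edgeR adjusted p of 0.121. That interval includes the fall of its partner Ccne1 as well as no difference, and with 164 to 189 counts per library the depth limits the estimate. The summed E cyclin level was 293 and 287 CPM in WT and 204 and 205 CPM in CBE-KO, and Ccne2 held 4.41% and 4.55% of the counts in the WT libraries, against 5.04% and 5.49% in CBE-KO.

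Ccna2 (ENSMUSG00000027715, chr3:36564865-36573038), the cyclin of S phase and G2, had 179 and 172 CPM in WT and 148 and 150 CPM in CBE-KO. The fall was smaller than those of Ccnd1, Ccnd3 and Ccne1, with a log2 fold change of -0.23 ± 0.05 (SE) and an edgeR adjusted p of 8.90e-04. Ccnb1 (ENSMUSG00000041431, chr13:100778739-100786486), the mitotic cyclin, had 381 and 387 CPM in WT and 361 and 354 CPM in CBE-KO. It did not pass the test, with a log2 fold change of -0.10 (95% interval -0.20 to -0.01) and an edgeR adjusted p of 0.0800, and with libraries scaled by their totals alone its difference was 0.0010. Of the 5 member cyclins that passed, Ccna2 had the smallest difference, and the interval of Ccnb1 held no change larger than 0.20 on the log2 scale.

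All 3 inhibitor genes were higher in CBE-KO. Cdkn2a (ENSMUSG00000044303) had the largest difference of the 10 genes. It had 75 and 67 counts in the WT libraries and 550 and 503 in the CBE-KO libraries, or 5.12 and 4.86 CPM against 33.8 and 34.5 CPM. Both CBE-KO libraries were thus 6.83-fold above WT in the fit, with a log2 fold change of 2.77 ± 0.12 (SE) and an edgeR adjusted p of 1.29e-11. Whether the rise came from the start preceded by the E2F motif (Arf), from the start preceded by the half-site (Ink4a), or from both is not resolved by gene counts. The summed fibroblast markers moved the same way, from 16.7 and 18.7 CPM in WT to 32.5 and 32.3 CPM in CBE-KO, with 4 of the 9 (Dcn, Lum, Postn and Fap) at 0 counts in all 4 libraries, and their part in the Cdkn2a difference was not tested.

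Cdkn1a (ENSMUSG00000023067, chr17:29090979-29100722), the Cip1 inhibitor and a classic p53 target, had 27.2 and 28.4 CPM in WT and 37.3 and 40.1 CPM in CBE-KO. The log2 fold change was 0.48 ± 0.08 (SE), with an edgeR adjusted p of 1.44e-04. Cdkn1b (ENSMUSG00000003031, chr6:134920401-134925525), the Kip1 inhibitor, had 62.4 and 61.3 CPM in WT and 83.3 and 86.9 CPM in CBE-KO. Cdkn1b had a log2 fold change of 0.46 ± 0.06 (SE), with an edgeR adjusted p of 7.78e-06. The pair kept nearly the same proportion: Cdkn1a held 30.4% and 31.6% of their joint counts in the WT libraries, against 30.9% and 31.6% in CBE-KO, while their summed level was 89.6 and 89.7 CPM in WT and 121 and 127 CPM in CBE-KO. With Cdkn1c, the third gene of this class, which is outside the set and fell, the sums were 131 and 128 CPM in WT and 135 and 140 CPM in CBE-KO.

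**Figure D3:**
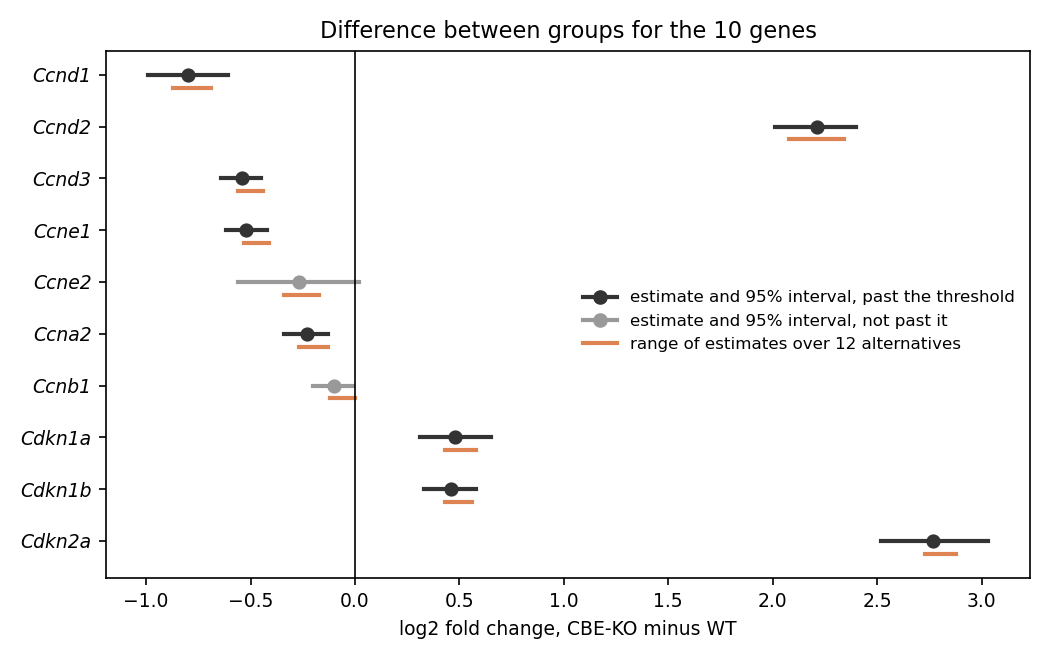
Log2 fold change (CBE-KO minus WT) of the 10 genes with its 95% interval, in black where past the threshold and grey where not, and in orange the range over 12 alternative analyses. Ccnd2 (2.21) and Cdkn2a (2.77) stand apart from the other 8, which lie between -0.80 and 0.48, and the orange range of Ccnb1 alone reaches 0.

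None of the nearest tested genes beside Cdkn2a and Ccnd2 differed by as much as the member. Cdkn2b, which encodes another INK4 inhibitor and lies 11.7 kb from Cdkn2a, rose from 2.60 and 2.25 CPM in WT to 4.55 and 4.94 CPM in CBE-KO (log2 fold change 0.96, edgeR adjusted p = 0.00354). On the other side, 93.4 kb away, Mtap, an enzyme of methionine salvage, had a log2 fold change of -0.16 (edgeR adjusted p = 0.0339, and 0.00360 to 0.450 over the alternatives). The Mtap call held in 5 of the 12 alternatives. Among the losses were the fits without WT replicate 1, CBE-KO replicate 1 or CBE-KO replicate 2. Beside Ccnd2, Tigar, 15.6 kb away, fell (log2 fold change -0.46, edgeR adjusted p = 5.31e-06) and Parp11, 295 kb away, rose (0.48, adjusted p = 0.00256). Next to Ccnd1, which fell, the fibroblast growth factor genes Fgf15 and Fgf4 also fell, by 1.05 and 0.34 on the log2 scale (edgeR adjusted p = 0.0134 and 7.20e-05). Tpcn2, 242 kb away on the other side of Ccnd1, had a log2 fold change of 0.01 (edgeR adjusted p = 0.965).

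Some of the genes share genomic sequence with others, and whether reads were counted by strand is not given in the sources used here. Bysl, which overlaps Ccnd3, was counted 2465 and 2297 times in the WT and 1875 and 1771 times in the CBE-KO libraries, with a log2 fold change of -0.50 (edgeR adjusted p = 4.20e-07) beside -0.54 for Ccnd3. Exosc9, which overlaps Ccna2, had a log2 fold change of -0.29 (edgeR adjusted p = 0.00768, and 0.00518 to 0.0808 over the alternatives, the last without CBE-KO replicate 1) beside -0.23 for Ccna2. Without strand, reads from the shared stretches cannot be assigned to either gene, so the values of members with an overlapping gene carry that uncertainty. LTO1, which overlaps Ccnd1, had 262 and 208 counts in the WT libraries and 252 and 176 in the CBE-KO libraries (log2 fold change -0.26, edgeR adjusted p = 0.156), set against 527 and 452, and 324 and 287, for Ccnd1. Ints8, which overlaps Ccne2, had a log2 fold change of 0.01 (edgeR adjusted p = 0.899). The pseudogene Ccnb1-ps had 49 to 77 counts per library against 5159 to 5874 for Ccnb1, and Ccnd3-ps had none.

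The genes most like Cdkn2a and Ccnd1, the members with the largest rise and fall, were sought by the distance between their log2 CPM profiles over the 4 libraries. Closest to Cdkn2a were Zadh2 (distance 0.219, log2 fold change 2.62), St8sia6 (0.373 and 2.75) and Plxna2 (0.440 and 2.44). Ccnd1 lay nearest to Adgrg6 (distance 0.0365, log2 fold change -0.85), Nifk (0.0407 and -0.81) and Zswim3 (0.0429 and -0.81). With 2 groups of 2 libraries, such closeness says little more than that the sizes of the differences were alike.

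The rest of the machinery was read from 8 lists holding 106 genes, of which 104 were tested. Of these, 67 changed (64.4%, beside 43.1% of all tested genes), 24 higher (23.1%) and 43 lower (41.3%). The direction depended on scaling: with libraries scaled by their totals alone, 28 were higher and 26 lower. Under that scaling the median over all tested genes was itself 0.11 on the log2 scale.

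Among the CDK partners, Cdk4, the kinase of the D cyclins, had 591 and 598 CPM in WT and 515 and 510 CPM in CBE-KO (log2 fold change -0.21, edgeR adjusted p = 8.35e-04), and by library totals it missed the threshold (adjusted p = 0.0529, the highest of the alternatives, whose lowest was 1.94e-05). Cdk6, its relative, had 24.0 and 22.2 CPM in WT and 21.6 and 24.6 CPM in CBE-KO and did not pass (edgeR adjusted p = 0.978). Cdk1 had a log2 fold change of -0.16 (edgeR adjusted p = 0.0113). The Cdk1 call was lost with library totals alone (edgeR adjusted p = 0.348), at a threshold of 0.01, and without WT replicate 1 or CBE-KO replicate 2. For Cdk2 the log2 fold change was -0.12 (edgeR adjusted p = 0.0933, and 0.809 with library totals alone), which passed only without WT replicate 1. Of the 11 CDKs and CDK switches, 3 rose, 3 fell and 5 did not pass, with a median of -0.12, a count near the 43.1% called over all tested genes. The Cdc25 phosphatases, which remove inhibitory phosphates from CDKs, differed in direction. Cdc25b and Cdc25c, active towards mitosis, rose (log2 fold changes 0.44 and 0.41, edgeR adjusted p = 1.55e-04 and 6.11e-04). Cdc25a, which also acts at entry into S phase, fell by 0.39 on the log2 scale (edgeR adjusted p = 1.46e-05).

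The other CDK inhibitors did not all follow the 3 members. Cdkn1c, the imprinted Kip2 inhibitor, went from 41.8 and 38.0 CPM in WT to 13.9 and 13.1 CPM in CBE-KO. Both CBE-KO libraries were thus well below WT, opposite to its relatives Cdkn1a and Cdkn1b, with a log2 fold change of -1.56 ± 0.10 (SE) and an edgeR adjusted p of 1.05e-09. Cdkn2c, an INK4 inhibitor, had 3.83 and 1.96 CPM in WT and 5.23 and 5.42 CPM in CBE-KO, higher by 0.87 on the log2 scale (edgeR adjusted p = 0.0135). Its call was lost with DESeq2 (adjusted p = 0.0739) and at a threshold of 0.01. It was also lost without WT replicate 2, where the log2 fold change was 0.47. Cdkn2d, the remaining INK4 gene, had 27.9 and 30.6 CPM in WT and 30.3 and 29.6 CPM in CBE-KO and did not pass (edgeR adjusted p = 0.776).

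Of the 7 other cyclins tested, 3 rose and 2 fell, beside 21.6% higher and 21.5% lower over all tested genes. The rises include Ccna1, which had only 5 and 14 counts in the WT libraries. Ccng2, an atypical cyclin linked to cell-cycle exit, rose from 21.1 and 25.7 CPM in WT to 40.7 and 38.2 CPM in CBE-KO (log2 fold change 0.76, edgeR adjusted p = 5.56e-06). Ccng1, a p53 target, fell from 176 and 174 CPM to 118 and 115 CPM (log2 fold change -0.58, edgeR adjusted p = 4.80e-08), whereas the p53 target Cdkn1a rose. Ccnb2, the second B cyclin, rose from 161 and 152 CPM to 198 and 188 CPM (log2 fold change 0.31, edgeR adjusted p = 1.15e-04), while its partner Ccnb1 did not pass.

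The G1/S genes known as E2F targets, which encode replication and nucleotide-supply proteins, gave the most even direction of the 8 lists. Of 22 tested, 16 fell, 0 rose and 6 did not pass, with a median log2 fold change of -0.21; with library totals alone, 11 fell and 1, Gins1, rose. The percentage that fell over all tested genes was 21.5%. The median size of the log2 fold change over all tested genes, whatever its direction, was 0.28. Most G1/S differences were thus small, and falls as small as -0.12 were among the 16. Cdc6 and Cdt1, which license replication origins, went from 163 and 156 to 102 and 99.1 CPM and from 206 and 197 to 137 and 140 CPM (log2 fold changes -0.66 and -0.54, edgeR adjusted p = 1.58e-08 and 1.43e-07). Rrm2, the small subunit of ribonucleotide reductase, fell from 371 and 349 to 253 and 248 CPM (log2 fold change -0.52, edgeR adjusted p = 1.65e-07). The falls of Cdc6, Cdt1 and Rrm2, the largest of the list, lie close to that of Ccne1, itself a known E2F target. The list's median of -0.21 is a smaller fall.

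Genes of G2 and mitosis had no common direction, with 6 higher, 6 lower and 8 not passing of 20 and a median of -0.05, beside 21.6% higher and 21.5% lower over all tested genes. Aurka, a spindle kinase, fell from 342 and 338 to 189 and 182 CPM (log2 fold change -0.88, edgeR adjusted p = 2.14e-10), and Ube2c, which loads ubiquitin for the anaphase-promoting complex, fell from 393 and 434 to 264 and 262 CPM (-0.65, adjusted p = 2.64e-08). Kif11, a spindle motor, rose from 5.06 and 3.27 CPM in WT to 11.0 and 16.9 CPM in CBE-KO (log2 fold change 1.73 ± 0.22 SE, edgeR adjusted p = 7.60e-06), with a wide spread within each group. Its counts, 74 and 45 in WT and 179 and 246 in CBE-KO, were the fewest of the list. Whether reads from Kif11 were lost in counting was not tested. The proliferation markers Mki67 and Pcna, named after their values were seen, differed in direction: Mki67 rose by 0.22 and Pcna fell by 0.32 on the log2 scale (edgeR adjusted p = 0.00270 and 3.95e-05).

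**Figure D4:**
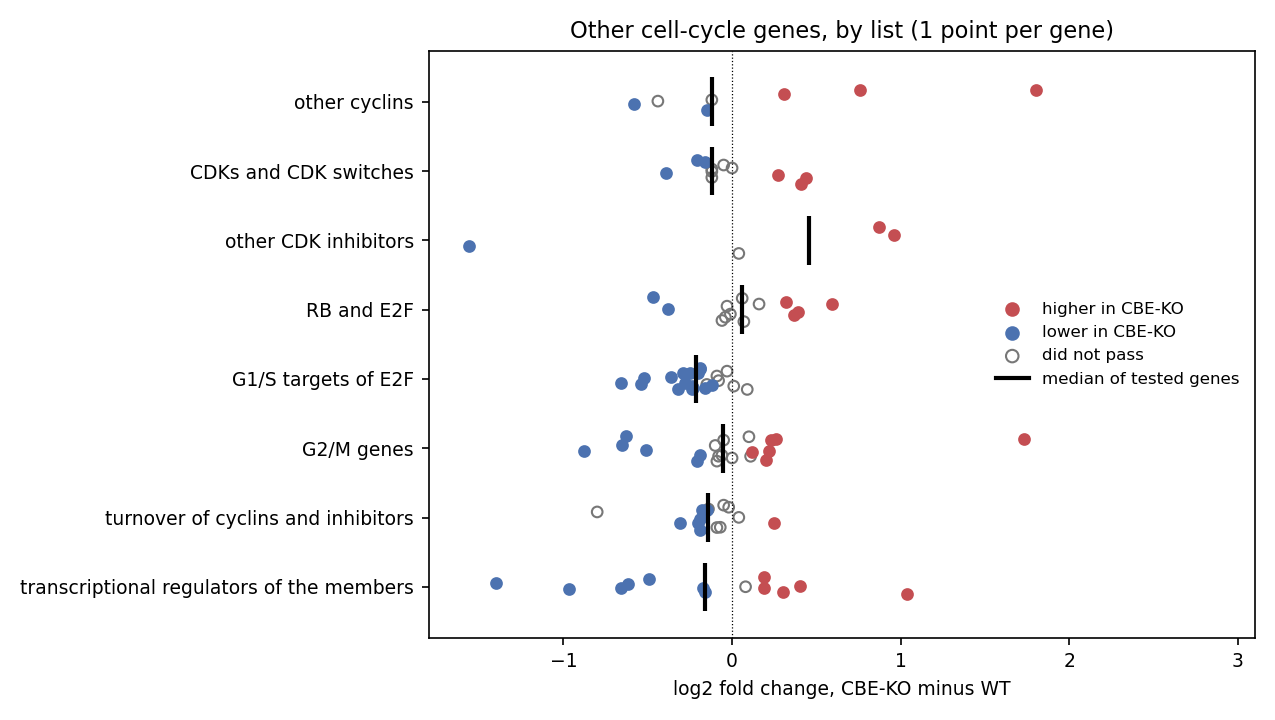
Log2 fold change (CBE-KO minus WT) of each tested gene in the 8 lists, filled red where higher, filled blue where lower and open where the test was not passed, with a bar at each list's median. With TMM scaling the G1/S list has 16 filled points below 0 and none above, while with library totals alone Gins1 passes above 0; the other 7 lists have filled points on both sides.

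In the RB and E2F list, 4 of 13 genes rose and 2 fell, a count near the 43.1% called over all tested genes. Rbl1, an RB relative that restrains E2F, rose from 22.5 and 20.2 to 33.2 and 31.3 CPM (log2 fold change 0.59, edgeR adjusted p = 5.74e-05). E2f1, an activating E2F, rose from 59.0 and 60.5 to 81.4 and 74.8 CPM (0.39, edgeR adjusted p = 9.68e-05) and E2f4, a mainly repressive one, fell from 185 and 180 to 128 and 136 CPM (-0.47, edgeR adjusted p = 9.47e-07). Of the 14 tested genes for turnover of cyclins and inhibitors, 1 rose and 6 fell, again near the 43.1% over all tested genes. These were small changes, led by the anaphase-promoting complex activator Fzr1 (log2 fold change -0.31, edgeR adjusted p = 5.33e-05), its subunit Anapc2 (0.25, adjusted p = 0.00110) and the cullin-ligase subunit Rbx1 (-0.20, adjusted p = 0.0101). By library totals only 2 of the 14 passed, Fzr1 and Anapc2, and Rbx1 also missed the threshold without WT replicate 1 (adjusted p = 0.172, the highest over its alternatives, with 1.34e-06 the lowest).

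Regulators known to act on these promoters changed in 12 of 13 cases, 5 higher and 7 lower, beside 43.1% of all tested genes. Their median was -0.16. With DESeq2 7 of the 13 passed, 1 higher and 6 lower, where 4577 of all 16005 tested genes passed. Myc, which controls many growth and cell-cycle genes, fell from 70.1 and 69.8 CPM in WT to 25.0 and 28.1 CPM in CBE-KO (log2 fold change -1.40, edgeR adjusted p = 2.18e-10). Its relative Mycn fell from 25.6 and 31.3 to 15.3 and 13.7 CPM (-0.97, edgeR adjusted p = 3.53e-06). Trp53, which encodes p53, fell from 496 in both WT libraries to 308 and 321 CPM in CBE-KO (-0.66, edgeR adjusted p = 5.61e-09), with its target Cdkn1a higher. For the Polycomb genes, repressors of Cdkn2a that were named after their values were seen, Bmi1 had a log2 fold change of 0.40 (edgeR adjusted p = 0.0182, and 0.00302 to 0.140 over the alternatives) and Cbx7 one of -0.17 (0.00683, and 0.00232 to 0.263). Without CBE-KO replicate 2 neither passed. Bmi1 also did not pass without WT replicate 2, with DESeq2 (adjusted p = 0.119) or at a threshold of 0.01. Cbx7 did not pass with library totals alone (edgeR adjusted p = 0.263).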

How the data were processed

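Gene-level read counts for 4 RNA-seq libraries were used as the authors deposited them, 1 raw count per Ensembl gene. The submitters' processing notes name HISAT2 2.1.0, HTSeq 0.9.1, DESeq2 1.18.1, Bowtie2 2.3.1 and mm10, without roles; the annotation release and strand setting are not given in the sources used here. Capture-C samples (6) were left out. Symbols were matched for 52403 of 52636 identifiers. In edgeR 4.0.16 (R 4.3.3), genes were filtered with filterByExpr, scaled by TMM and tested with the quasi-likelihood fit, two-sided, on 2 against 2 libraries, with Benjamini-Hochberg adjustment over 16005 genes; the fit was checked on simulated data. An exact permutation test could not pass 0.05 with these group sizes, so shares were not tested. Replicates differed by more than counting noise (chi-square per degree of freedom 3.40 in WT, 2.70 in CBE-KO). Total counts of 14108038 to 15632960 put 3 counts at 0.185 to 0.218 CPM.

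The members and lists were chosen with earlier results of these data known. Named besides the members were the 3 genes of each list with the largest change among those past the threshold, without overlap and with 5 CPM or more in the group where they were higher, the 3 nearest profiles to 2 members (log2 of CPM plus 0.5), all marker genes, Trp53, Myc, Mycn and the Y-linked genes; other names were chosen by position or role. Alternatives were DESeq2 1.42.0, 3 other scalings, 2 other filters, a threshold of 0.01, a replicate block and leaving out each library.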

Additional observations from a re-analysis of the deposited data

How the results depend on the processing

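The 10 genes kept their calls (8 changed, 4 higher and 4 lower) under all 12 alternatives, and of 56 named genes under 12 settings, 638 results kept direction and call, 27 lost the call, 1 gained it and 6 reversed. The changed genes in all fell from 6895 to 4577 with DESeq2 (2047 higher, 2530 lower) and ranged from 5383 to 6500 with a library left out, where the lone library is assumed to vary like the other group. With library totals alone the share of calls that were higher went from 50.2% to 66.9%, turnover genes changed from 7 to 2, and the G1/S genes that rose from 0 to 1; with DESeq2 the regulators changed went from 12 to 7. Reversals were in genes that passed no test: Ccnb1 to 0.0010 and Cdk6 to 0.10 with library totals, Cdk6 to 0.03 with upper-quartile scaling and -0.10 to 0.09 with a library left out, and Cdkn2d -0.03 to 0.10 with a library left out. The cause was not tested. Depth limits Ccne2 (164 to 189 counts per library) and the low inhibitors Cdkn2b and Cdkn2c.

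Equal replicate numbers are not said to mark a shared batch, and deviations of same-numbered libraries correlated at 0.0366. A fit with a replicate block called 7028 genes, 8 of the 10 members and 65 of the 104 list genes.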

Other observations

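Some cell-cycle genes had few counts or none. Skp2, which targets Cdkn1b for degradation, was listed at 0 counts in all 4 libraries. By counting error only, that allows a level of up to 0.218 CPM in the library where 3 counts weigh most. Whether reads from Skp2 were lost in counting or given to another gene was not tested. The 0 counts therefore do not show that Skp2 was absent. Ccna1, the germline A cyclin, was counted 5 and 14 times in the WT and 41 and 32 times in the CBE-KO libraries. It rose by 1.80 on the log2 scale (edgeR adjusted p = 0.00244). Ccna1 reached the counts needed for testing in both CBE-KO libraries but not in both WT libraries, so its rise is not independent of the filter. Ccnb3, a meiotic B cyclin, had 1 and 0 counts in the WT libraries, 1 and 8 in the CBE-KO libraries, and was not tested.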
